A study of Mus musculus with 6 samples.

Results

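Clustered protocadherins are cell-surface recognition proteins of the cadherin superfamily, encoded in a row of 3 gene clusters (alpha, beta and gamma) on mouse chromosome 18. The members were all genes of the deposited tables whose symbols follow the naming of these clusters (Pcdha, Pcdhb, Pcdhga and Pcdhgb with a number, and the C-type genes Pcdhac and Pcdhgc). The rule on symbols used no value, but the family itself was selected on its read counts and levels in these libraries and groups, so its pattern across them is a description and not a test. The rule took 58 of 55385 genes, with 14 in the alpha cluster, 22 in the beta cluster and 22 in the gamma cluster. The gamma cluster was divided further into 12 gamma A, 7 gamma B and 3 C-type members, and the alpha cluster held the other 2 of the 5 C-type members. The symbol Pcdha11 is carried by 2 different Ensembl genes, so the 58 genes have 57 symbols.

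In the alpha and gamma clusters each variable exon has its own promoter and encodes the extracellular part of a protocadherin, and it is spliced to 3 constant exons that all members of the cluster use for the intracellular part. Beta members lack such constant exons. In neurons each cell switches on a small, largely random set of members through promoter choice that depends on DNA methylation, CTCF and cohesin, while C-type members are chosen less randomly, and contacts between matching proteins on opposing membranes serve self-recognition. The proteins can be cut by the protease ADAM10 and then by gamma-secretase. Their levels in mammary tumors are described here as measured, without inference from the nervous system.

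RNA came from tissue labelled as fibrotic mammary gland, described in the study as tumors, of female NeuT/ATTAC mice. These mice carry a constitutively active rat ErbB2[V664E] gene under the MMTV promoter, which is active in mammary epithelium, and an FKBPv-caspase-8 fusion under the FABP4 promoter, which drives it in fat cells. Injections of AP20187, which dimerizes the fusion and so ablates part of the mammary fat, were 0.4 mg/kg and began at an age of 6 weeks. For the 3 control libraries the treatment label joins the words AP20187 and vehicle, so that it can mean both agents or the vehicle. The study describes control as well as DMHCA-treated mice as receiving AP20187, and its reading was followed here. The 3 DMHCA libraries came from mice that in addition, starting at an age of 8 weeks, ate food with 0.05% DMHCA (about 100 mg/kg), a sterol-like agonist of the liver X receptor. The 5 markers of luminal epithelium summed to 2930 to 4422 TPM (transcript levels scaled by RSEM for length and library size). Epcam, Krt8 and Krt18 made up most of this sum in every library, while Krt19 ranged from 1.51 to 435 TPM.

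Total expected counts, which are RSEM's estimates of reads per gene, ranged from 46358838 to 63420729 per library. Between DMHCA libraries 1 and 3 the biological coefficient of variation was 0.0327, against 0.376 to 0.579 in the other 5 pairs within a group, and 18.2% of genes differed by a chi-square test, against 82.0% to 87.0% in the other pairs. The difference between these libraries exceeded sampling noise, but was so far below that of other pairs that their counts were summed into 1 sample, called DMHCA 1+3. The comparison thus had 3 control and 2 DMHCA samples. Control library 1 held 8778 TPM of 5 salivary gland markers, against 14.5 to 120.3 TPM in the others. Control library 3 held the most B cell, T cell and adipocyte markers, with 251, 107 and 908 TPM in sum. DMHCA library 2 held the least of the skeletal muscle markers, with 176 TPM against 452 to 777 TPM in the other libraries. The sum of the milk secretion markers was also lowest there, with 12168 TPM against 16815 to 53984 TPM. In DMHCA library 2 almost all of that sum was Csn3 (12114 TPM). The other milk markers, Csn1s1, Csn1s2a and Csn2, were lowest in control library 2, at 12.8, 13.6 and 15.2 TPM. The part of such tissue in the levels below was not tested, and in bulk RNA fewer cells of a type and less RNA per cell cannot be told apart.

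How far the members can be told from each other by their reads differed between the clusters. All 58 were found in GENCODE M21 on the plus strand of chromosome 18 of GRCm38, the alpha members at 36930184 to 37187661, the beta members at 37264938 to 37524479 and the gamma members at 37661793 to 37841873. The 14 alpha genes share 2860 exonic bases with all other alpha genes, and the 22 gamma genes share 2116. As a result, 45.1% to 62.0% of an alpha gene's exonic bases and 33.2% to 72.2% of a gamma gene's belonged to no other member. Of the 22 beta genes, 20 shared no exonic base with another member, the exceptions being the overlapping Pcdhb21 and Pcdhb22.

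The transcript sequences gave the same order. Of all 100-base windows in each member's longest coding transcript, a median of 55.15% in the alpha cluster and 44.1% in the gamma cluster occurred letter for letter in another member. In the beta cluster the median was 0.2% and the highest value 7.7%, in Pcdhb21. With 50-base windows the beta median was 4.25%. Most windows of a beta member thus occur in it alone, while reads on constant exons of alpha and gamma members were divided by RSEM among the members, so that sums over those clusters are firmer than values of single members.

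**Figure D1:**
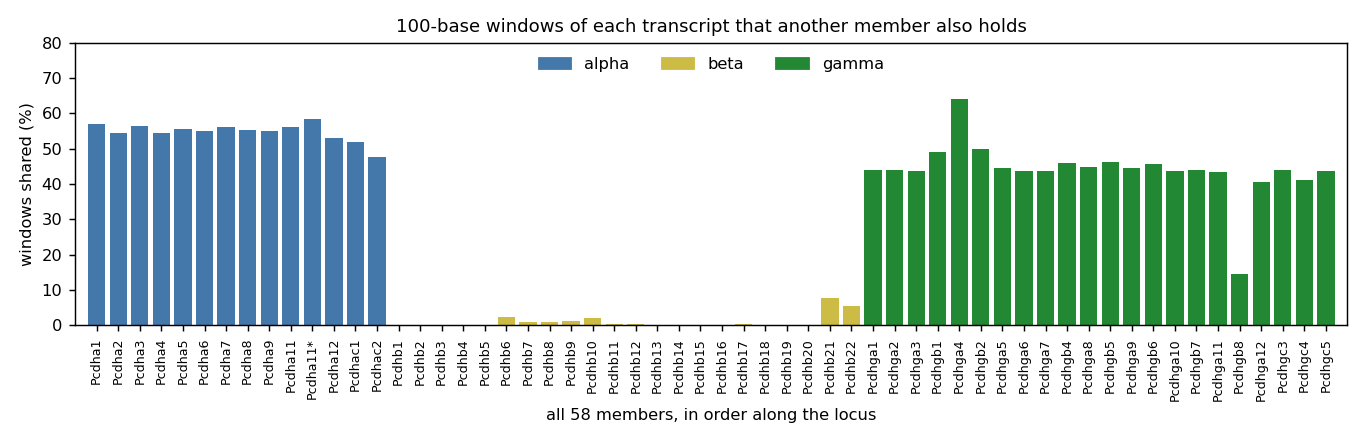
Share of 100-base windows (in percent) of each member's longest coding transcript that occur unchanged in a transcript of another member, with 1 bar for each of the 58 members in their order along chromosome 18. Alpha bars lie between 47.7% and 58.4%, beta bars at or below 7.7%, and gamma bars between 14.4% (Pcdhgb8) and 64.0%; Pcdha11* is the Pcdha11 gene with the identifier ENSMUSG00000102206.

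The family was led by the gamma cluster in every library, and DMHCA library 2 held several times more of it than any other. Summed over the 58 members, the deposited TPM were 84.8, 41.5 and 48.1 in control libraries 1, 2 and 3, and 58.3, 279 and 56.9 in DMHCA libraries 1, 2 and 3. Gamma members made up 60.3% to 65.8% of the family's TPM in 5 libraries and 88.1% in DMHCA library 2. Within the gamma cluster the C-type members took most of it, with 47.4% to 53.7% of the family's TPM in 5 libraries and 77.9% in DMHCA library 2. In the 5 libraries most of this was Pcdhgc4, whose reads lay mostly on constant exons that all gamma members use, so the share cannot be read as use of C-type variable exons. Beta members contributed 11.9 to 32.4 TPM and alpha members 0.54 to 2.29 TPM. The share of gamma members thus varied little among 5 libraries, the near-identical pair included, and was higher in DMHCA library 2.

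**Figure D2:**
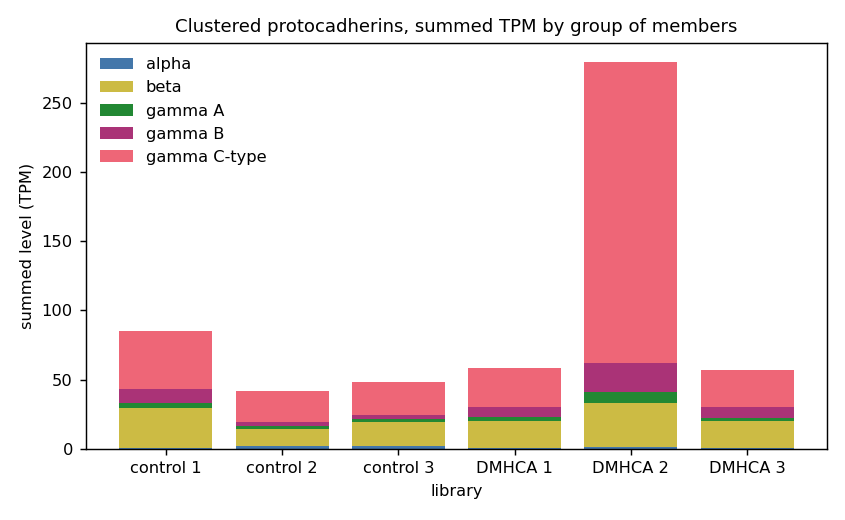
Summed TPM of alpha, beta, gamma A, gamma B and gamma C-type members (stacked) in each of the 6 libraries. The total is 41.5 to 84.8 TPM in 5 libraries and 279 TPM in DMHCA library 2, where gamma C-type members alone reach 218 TPM.

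In normalized counts (scaled by TMM to a common library size), the gamma cluster summed to 8564, 5062 and 4009.5 in controls 1, 2 and 3, to 6125 in DMHCA 1+3 and to 37349 in DMHCA 2. DMHCA 1+3 lay inside the range of the controls, and DMHCA 2 was 4.36 times the highest other sample. The means were 5879 ± 2384 (SD, n = 3) in controls and 21737 ± 22079 (SD, n = 2) with DMHCA, a log2 ratio of 1.89 that was 0.10 without DMHCA library 2. The 2 DMHCA samples differed from each other by more than the group means did, so the group difference was smaller than the spread within the DMHCA group.

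The beta cluster summed to 5656, 3242 and 3385 normalized counts in controls 1, 2 and 3, to 3736 in DMHCA 1+3 and to 5879.7 in DMHCA 2. Its means were 4094 ± 1354 (SD, n = 3) and 4808 ± 1516 (SD, n = 2), a log2 ratio of 0.23 that was -0.09 without DMHCA library 2. The beta sums of the groups overlapped, with control 1 near DMHCA 2. The alpha cluster summed to 123.5, 702 and 476 in controls and to 156 and 206 in DMHCA 1+3 and DMHCA 2. The alpha log2 ratio of the means was -1.26 (434 ± 292 against 181 ± 35.7), and the groups overlapped because control 1 was the lowest sample. Without control library 1 this ratio was -1.69, and without control library 2 it was -0.76.

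By edgeR's quasi-likelihood test with Benjamini-Hochberg adjustment over 19427 genes, 0 members and 0.0% of all genes had an adjusted p under 0.05. The filter on low counts kept 50 of the 58 members, and left out 7 alpha genes and Pcdhb1. At an unadjusted p under 0.05, 4 members were higher with DMHCA (3.53% of all genes tested were) and 1 was lower (4.08% of all genes). The higher ones were Pcdhgc3, Pcdhgb6, Pcdhb11 and Pcdhgc5, and the lower one was the Pcdha11 gene ENSMUSG00000007440. Without DMHCA library 2, 0 members had an unadjusted p under 0.05 in either direction (2.78% of all genes were higher and 1.48% lower), in a fit where the lone DMHCA sample was assumed to vary like the controls. Without control library 1, 2 or 3 the numbers higher were 5, 1 and 3 (3.33%, 2.91% and 2.16% of all genes) and the numbers lower 2, 2 and 5 (3.37%, 6.48% and 3.27% of all genes). DESeq2, the tool of the study, gave 7 higher and 5 lower of the 58 members at an unadjusted p under 0.05 on the 5 samples (2.35% and 4.35% of all genes) and 7 and 6 on the 6 libraries (4.14% and 6.21% of all genes). After adjustment it gave 0 higher and 1 lower, Pcdha11 (ENSMUSG00000007440), in each. Of all genes, DESeq2 after adjustment called 0.247% higher and 0.957% lower on the 5 samples, and 1.43% higher and 2.95% lower on the 6 libraries.

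The fitted log2 fold changes of the 50 members ran from -3.07 to 2.74 with a median of -0.16, against -0.03 for all genes. The median was 0.07 without control library 1 and -0.44 without DMHCA library 2. Means were higher with DMHCA for 21 members and lower for 29. By cluster, the median was -2.06 over 7 alpha members, -0.52 over 21 beta members and 0.31 over 22 gamma members. The 2 groups did not overlap for 6 members that were higher with DMHCA (13.8% of all genes) and for 5 that were lower (12.2% of all genes). The higher ones were Pcdhb5, Pcdhb7, Pcdhb11, Pcdhb15, Pcdhgb6 and Pcdhgb8, and the lower ones were Pcdha11, Pcdhb14, Pcdhga3, Pcdhga5 and Pcdhgb4, of which Pcdhb15 and Pcdhgb4 are named after their values were seen. These counts lie near the background of all genes.

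**Figure D3:**
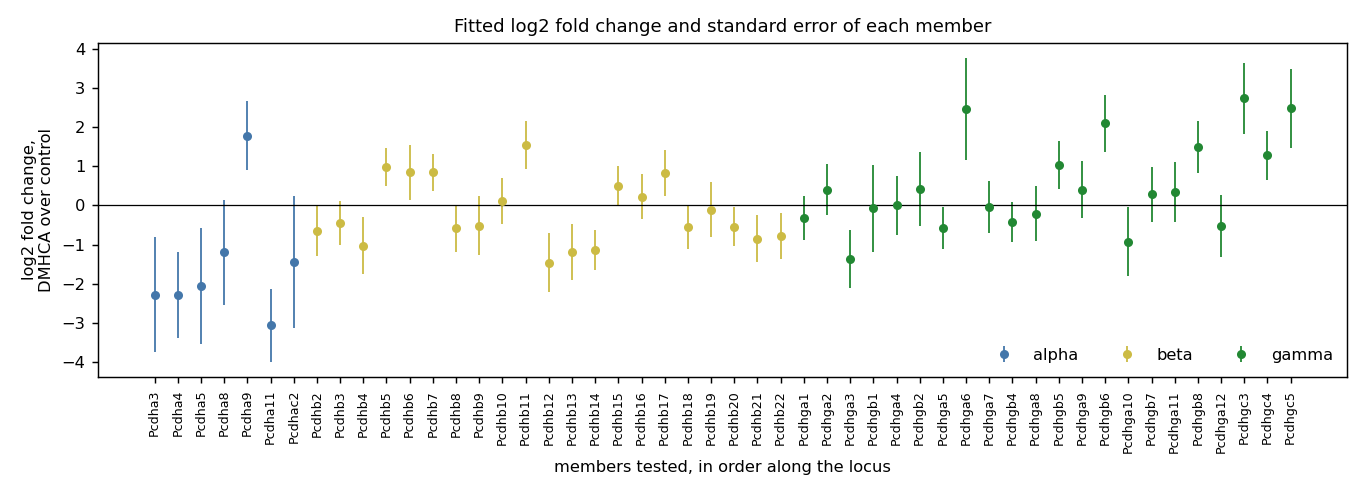
Fitted log2 fold change (DMHCA over control) and its standard error for the 50 members tested, in their order along chromosome 18 and coloured by cluster. Of 7 alpha members 6 lie below 0, beta members lie between -1.46 and 1.55, and the values above 2 belong to Pcdhga6, Pcdhgb6, Pcdhgc3 and Pcdhgc5 of the gamma cluster.

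The members were also counted by the sample in which each was highest, whatever its group. Of the 50 members tested, 15 were highest in control 1 (6.59% of all genes were), 9 of them beta and 6 of them gamma members. Control 1 is the library with the salivary gland markers, whose part in these members was not tested. A further 11 were highest in control 2 (24.5% of all genes) and 12 in DMHCA 2 (22.0% of all genes). The remaining 5 and 7 were highest in control 3 (27.4% of all genes) and in DMHCA 1+3 (19.5% of all genes). In DMHCA 2, 6 members exceeded the next sample at least 3-fold, as 0.638% of all genes did. They were Pcdhgc3 (7.19 times), Pcdhgc5 (6.28 times), Pcdhga6 (5.365 times), Pcdha9 (5.32 times), Pcdhgb6 (4.70 times) and Pcdhgc4 (3.65 times). All but Pcdha9 are gamma members, and the 3 C-type genes lie next to each other at the end of the cluster. DMHCA 2 was the highest sample for 7 of the 22 gamma members, and the lowest for 5 of them, Pcdhga3, Pcdhga5, Pcdhga7, Pcdhgb4 and Pcdhga9, of which Pcdhga7, Pcdhgb4 and Pcdhga9 are named after their values were seen.

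**Figure D4:**
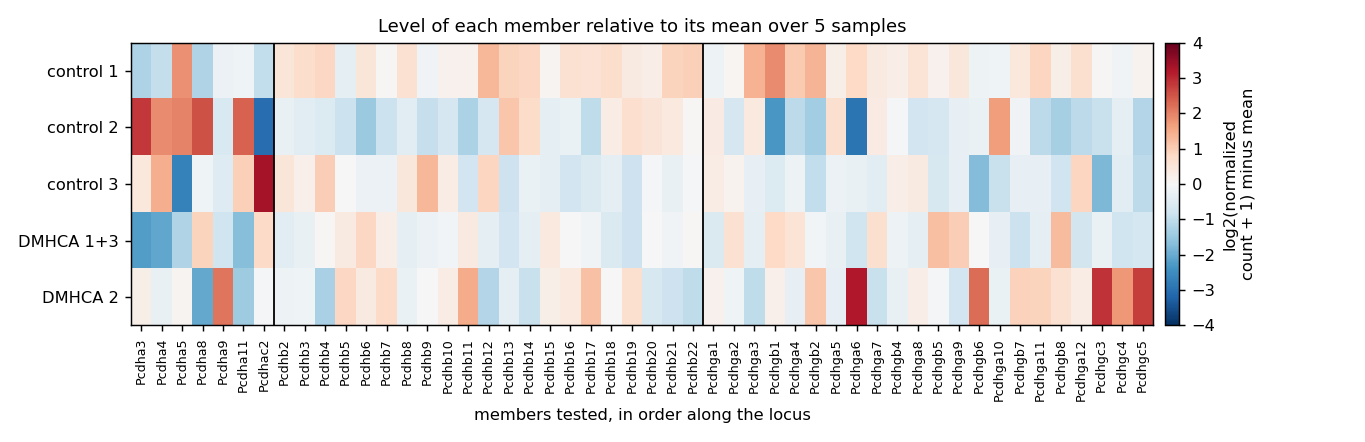
Level of each of the 50 members tested (columns, in order along the locus; lines separate alpha, beta and gamma) in the 5 samples (rows), as log2(normalized count + 1) minus the member's mean over the samples. Pcdhga6, Pcdhgb6, Pcdhgc3, Pcdhgc4, Pcdhgc5 and Pcdha9 are high in DMHCA 2, several alpha members are high in control 2, and Pcdhac2 is high in control 3.

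Among the gamma C-type members, Pcdhgc3 (chromosome 18 of GRCm38, 37806364 to 37841873) and Pcdhgc4 (37815079 to 37841873) led the family, and both contain the gamma constant exons. Pcdhgc3 had 3057, 1587 and 839.5 normalized counts in controls 1, 2 and 3, 2421 in DMHCA 1+3 and 21973 in DMHCA 2. DMHCA 1+3 lay between controls 1 and 2, so the groups overlapped and DMHCA 2 alone stood above. Its log2 fold change was 2.74 (SE, the standard error of the fit, 0.91), and 0.44 without DMHCA library 2. In TPM, Pcdhgc3 took 13.6% to 31.1% of the gamma cluster in the other 5 libraries and 46.7% in DMHCA library 2. Pcdhgc4 led it in TPM in the other 5 libraries, but in expected counts, which are not divided by length, Pcdhgc3 exceeded Pcdhgc4 in control library 1 and in all 3 DMHCA libraries.

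Pcdhgc4 had 2536, 2136 and 2057 normalized counts in controls 1, 2 and 3, and 1608 and 9258 in DMHCA 1+3 and DMHCA 2. Its controls were close to each other (2243 ± 257, SD, n = 3), and the DMHCA samples fell on either side of them. The log2 fold change was 1.28 (SE 0.64) and -0.44 without DMHCA library 2. The count of this gene has a limit that its level alone does not show. RSEM gave Pcdhgc4 a mean transcript length of 2275 to 2345 bases in every library, close to the 2272 bases of its short annotated transcript and far from the 5024 bases of the long coding one. In the short transcript 93.3% of the bases are constant exons and 153 bases are its own. Most reads assigned to Pcdhgc4 thus lay on exons that every gamma member uses, and its level cannot be read as use of its own variable exon. For Pcdhgc3 the mean length was 4466 to 4671 bases, near the 4687 bases of its full coding transcript.

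Pcdhgc5, the last gene of the cluster (37819513 to 37841873), had far fewer counts, and DMHCA 2 again stood alone above the rest. It had 94.7, 37.55 and 41.5 normalized counts in controls, 52.4 in DMHCA 1+3 and 595 in DMHCA 2, a fitted log2 difference of 2.48 (SE 1.0) that was -0.11 without DMHCA library 2. The exons of Pcdhgc3 overlap those of BC037039 on the opposite strand, and whether counting used strand is not given in the sources used here. BC037039 had 256, 135 and 96.0 normalized counts in controls, 166 in DMHCA 1+3 and 3053 in DMHCA 2. Its 5 samples stood in the same order as those of Pcdhgc3, and reads on the stretch where the pair overlaps cannot be told apart without strand.

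The gamma A and gamma B genes join their own variable exons to the same constant exons. Pcdhgb6 led the gamma B genes in 5 libraries, with 611, 578 and 208 normalized counts in controls, 698.5 in DMHCA 1+3 and 3280.4 in DMHCA 2. Both DMHCA samples lay above all controls, DMHCA 1+3 by a small margin. Its log2 fold change was 2.09 (SE 0.73) and 0.62 without DMHCA library 2. Pcdhga6 had 193, 13.65 and 90.8 in controls, 63.2 in DMHCA 1+3 and 1034 in DMHCA 2. It spread widely within the controls too, and its log2 fold change of 2.47 (SE 1.3) was -0.61 without DMHCA library 2 and 3.35 without control library 1.

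Control 1 stood out in other gamma members. Pcdhgb1 had 799 normalized counts in control 1, against 42.1 and 147 in controls 2 and 3 and 375 and 250.1 in DMHCA 1+3 and DMHCA 2. Pcdhgb2 had 373, 53.5 and 72.7 in controls and 132.5 and 312 in the DMHCA samples, and Pcdhga4 had 195, 44.4 and 80.45 in controls and 138.5 and 74.1 in the DMHCA samples. In these 3 genes the highest and the lowest sample were both controls. Their log2 fold changes were -0.07, 0.42 and -0.0024, and were 1.71, 1.79 and 0.76 without control library 1.

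In 3 further gamma genes the groups did not overlap, at much lower counts. Pcdhga5 had 87.7, 117 and 63.6 normalized counts in controls and 61.4 and 59.5 with DMHCA, a fitted log2 difference of -0.57 (SE 0.54). Pcdhga3 had 75.0, 37.55 and 22.1 in controls and 21.1 and 13.35 with DMHCA, a fitted log2 difference of -1.37 (SE 0.73) that was -0.78 without control library 1. Pcdhgb8, annotated as a polymorphic pseudogene, had 46.2, 14.8 and 22.1 in controls and 95.7 and 59.5 with DMHCA, a fitted log2 difference of 1.49 (SE 0.66). For Pcdhga3 and Pcdhga5 the lowest control and the highest DMHCA sample nearly met, and each had an unadjusted p above 0.05 by edgeR. Pcdhgb8 differs from the members above in that DMHCA 1+3, not DMHCA 2, was its highest sample, and its log2 fold change was 1.82 without DMHCA library 2.

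**Figure D5:**
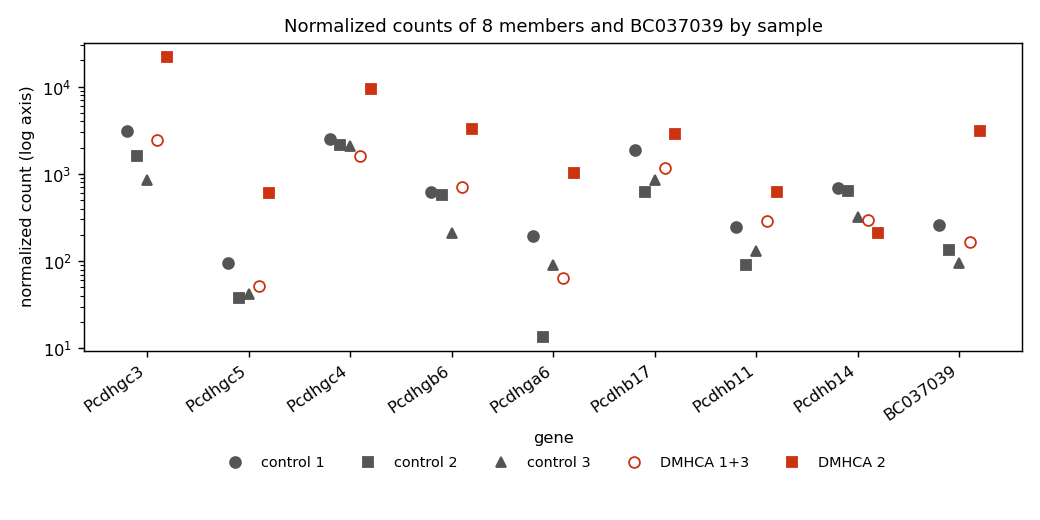
Normalized counts (log axis) of 8 members and of BC037039, which overlaps Pcdhgc3 on the opposite strand, in the 3 control samples (grey) and the 2 DMHCA samples (red; DMHCA 1+3 open, DMHCA 2 filled). DMHCA 2 is the highest sample in every gene plotted except Pcdhb14, whereas DMHCA 1+3 lies within the control range for Pcdhgc3, Pcdhgc5, Pcdhga6, Pcdhb17 and BC037039.

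Beta members, each read almost wholly from its own exon, gave single-gene levels with the least sharing. Pcdhb17 (37484795 to 37489454) led the beta cluster in every library, with 18.7% to 45.1% of its TPM. It had 1889.9, 620.1 and 849.9 normalized counts in controls 1, 2 and 3, 1162 in DMHCA 1+3 and 2830.0 in DMHCA 2. The groups overlapped, with control 1 above DMHCA 1+3, and the log2 fold change was 0.83 (SE 0.58), with 0.09 without DMHCA library 2 and 1.42 without control library 1. The rank order behind Pcdhb17 changed between libraries, as Pcdhb7, Pcdhb20 and Pcdhb9 each took the place after it in at least 1 library.

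Pcdhb7, Pcdhb5 and Pcdhb11 were higher in both DMHCA samples than in any control. Pcdhb7 had 308, 165 and 250.4 normalized counts in controls and 356 and 509 in DMHCA 1+3 and DMHCA 2, and Pcdhb5 had 162, 116 and 214 in controls and 272 and 375 with DMHCA. Their log2 fold changes were 0.84 (SE 0.48) and 0.98 (SE 0.49), and 0.60 and 0.77 without DMHCA library 2. Pcdhb11 (37421418 to 37425836) had 245, 89.9 and 129.8 in controls and 284 and 622 with DMHCA, a fitted log2 difference of 1.55 (SE 0.62) and 0.91 without DMHCA library 2. The 3 genes share the order of samples at the top, DMHCA 2 and then DMHCA 1+3, unlike Pcdhgc3, where DMHCA 1+3 lay among the controls.

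Pcdhb14 and Pcdhb12 had lower means with DMHCA. Pcdhb14 (37447656 to 37456350) had 692, 638 and 319 normalized counts in controls and 293 and 210.0 in DMHCA 1+3 and DMHCA 2, a fitted log2 difference of -1.13 (SE 0.51) and -0.87 without DMHCA library 2. Control 3 and DMHCA 1+3 were separated by a small gap. Pcdhb12 had 190.5, 46.65 and 137.5 in controls and 57.2 and 32.8 with DMHCA, a fitted log2 difference of -1.46 (SE 0.75), and its control 2 lay between the DMHCA samples. In all, 13 of the 21 beta members tested had lower means with DMHCA, and 8 of them higher.

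Alpha members were scarce, and the leading member differed between several of the libraries. The leading alpha member was Pcdha11 (ENSMUSG00000007440) in control library 1, Pcdha8 in control library 2, Pcdhac2 in control library 3, Pcdha8 in DMHCA libraries 1 and 3, and Pcdha9 in DMHCA library 2. That member held 24.1%, 31.0%, 53.3%, 45.0%, 47.8% and 52.1% of the alpha TPM in control libraries 1, 2 and 3 and in DMHCA libraries 1, 3 and 2. Of the 7 alpha members tested, 5 were highest in control 2, and 1 each in control 3 and DMHCA 2. Pcdha8 thus led in 3 libraries, among them the near-identical DMHCA libraries 1 and 3, and the other 3 leaders in 1 library each.

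Pcdha11 (ENSMUSG00000007440, 37005203 to 37187657) had 30.0, 179 and 66.2 normalized counts in controls and 9.635 and 12.1 in DMHCA 1+3 and DMHCA 2. Every control lay above both DMHCA samples. The near-identical DMHCA libraries 1 and 3 had expected counts of 15.53 and 0.0, so the estimate varied within that sample by as much as its level, and the fold change rests on few reads. Its log2 fold change was -3.07 (SE 0.94), from -3.91 to -2.14 with any library left out. It passed the adjusted threshold in DESeq2 but not in edgeR, where its adjusted p was 0.644, as was the lowest of any member. The other gene of that name, ENSMUSG00000102206, had 6.83 normalized counts in control 2 and at most 0.602 elsewhere, and was not tested.

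Pcdha4 had 10.4, 81.9 and 59.7 normalized counts in controls and 4.215 and 17.0 in DMHCA 1+3 and DMHCA 2, a fitted log2 difference of -2.29 (SE 1.09) that was -3.51 without DMHCA library 2 and -1.77 without control library 2. Pcdha8 had 16.2, 228 and 33.7 in controls and 71.1 and 8.50 with DMHCA. Its log2 fold change of -1.20 (SE 1.34) became 0.70 without control library 2, which held most of its counts. Pcdhac2, a C-type gene, had 12.7, 2.28 and 275 in controls and 45.2 and 25.5 with DMHCA, a fitted log2 difference of -1.44 (SE 1.69) that became 2.23 without control library 3, the library with the most B cell, T cell and adipocyte markers. Pcdha9, named after its values were seen, had 20.8, 15.9 and 16.9 in controls, 13.85 in DMHCA 1+3 and 110.5 in DMHCA 2. Pcdhac1, the remaining C-type gene, had 9.10 normalized counts in control 2 and a count of 0 in the other samples, which allows up to 3 counts in each.

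The libraries' sets of members were compared by the ranks of their TPM, as a description. Over the 50 members tested, Spearman's rho was 0.975 between DMHCA libraries 1 and 3 and 0.44 to 0.88 in the other 14 pairs. Over all 19427 genes tested it was 0.995 for that pair and 0.895 to 0.962 for the others. The points share libraries and, within the alpha and gamma clusters, constant exons, and many members have low counts. Among beta members alone, which share few reads, rho was 0.97 for the near-identical pair and 0.466 to 0.855 for the others.

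Genes around the clusters and genes tied to their use are given for comparison. The list of neighbours also held Relch, which does not lie there and was left out. Of the other 24 neighbouring genes, 23 were tested, and 0 were higher and 1 lower at an unadjusted p under 0.05 (3.53% and 4.08% of all genes). The lower one was Cd14, a co-receptor for lipopolysaccharide on myeloid cells, with a fitted log2 difference of -1.88 (SE 0.41). Diaph1, an actin nucleator that lies just beyond the gamma cluster, had 14.7 to 21.8 TPM in controls, 18.5 and 18.6 in DMHCA libraries 1 and 3 and 27.1 in DMHCA library 2. Hdac3, a histone deacetylase next to it, had 68.9 to 96.6, 101 and 101, and 157 TPM in the same order. These are 2 of 5 neighbours tested that were highest in DMHCA 2 (22.0% of all genes), while 10 were highest in control 2 (24.5% of all genes). Taf7, a subunit of the general transcription factor TFIID that is named here after its values were seen, was lowest in DMHCA library 2, at 4.97 TPM against 5.4 to 8.47 TPM elsewhere.

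Of 24 regulators of promoter choice and chromatin, all tested, 3 were higher and 0 lower at an unadjusted p under 0.05 (3.53% and 4.08% of all genes). The median log2 fold change of the 24 was 0.26, against -0.03 for all genes. The 3 were Trim28, a corepressor, with a fitted log2 difference of 1.06 (SE 0.33), Dnmt3b, a de novo DNA methyltransferase, with 1.22 (SE 0.43), and Tet2, which oxidizes methylcytosine, with 0.78 (SE 0.30). For 11 of the 24 both DMHCA samples lay above all controls, beside 13.8% of all genes, and 16 were highest in DMHCA 2, beside 22.0%. Unlike the gamma C-type genes, Trim28 was close in the 3 DMHCA libraries, with 165, 188 and 169.81 TPM, against 56.4 to 119 in controls.

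Of 20 processing and signalling partners, 0 were higher and 2 lower at an unadjusted p under 0.05 (3.53% and 4.08% of all genes), and 5 lay above and 6 below all samples of the other group (13.8% and 12.2% of all genes). Psen2, a catalytic subunit of gamma-secretase, had a fitted log2 difference of -1.03 (SE 0.40), and Wasf1, a subunit of the WAVE complex that protocadherins can bind, had -3.20 (SE 0.72) at 0.09 to 1.0 TPM. Of the 12 nonclustered protocadherins, related genes that lack the cluster arrangement, 8 were tested, with 0 higher and 1 lower (Pcdh15, at 0.0 to 0.73 TPM). Pcdh18 and Pcdh1 led that list, with 6.94 to 44.8 and 9.19 to 28.65 TPM in controls and 45.9 and 34.75 TPM in DMHCA library 2. DMHCA libraries 1 and 3 had 25.3 and 23.1 TPM of Pcdh18 and 17.3 and 15.2 TPM of Pcdh1, within the controls' range.

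Markers of cells known to express clustered protocadherins differed in whether DMHCA 2 was their highest sample, which it was for 0 of 5 neuron, 2 of 6 Schwann cell, 3 of 4 pericyte and 0 of 8 fibroblast markers tested (22.0% of all genes). The 7 neuron markers summed to 1.23 to 3.63 TPM in controls and 1.39 to 1.53 TPM in DMHCA libraries 1 and 3, and were lowest, at 0.99 TPM, in DMHCA library 2. Of the Schwann cell list, Sox10, a neural crest transcription factor, had 140.09 to 312.08 TPM in controls, 356.71 and 343.53 TPM in DMHCA libraries 1 and 3 and 380.39 TPM in DMHCA library 2. Cdh19, a cadherin of Schwann cell precursors, had 8.12 to 16.4 TPM in controls, 25.49 and 26.11 TPM in DMHCA libraries 1 and 3 and 36.38 TPM in DMHCA library 2. The 4 pericyte markers summed to 32.8 to 47.7 TPM in controls, 45.1 and 46.2 in DMHCA libraries 1 and 3 and 60.1 in DMHCA library 2. Fibroblast markers summed to 679.63 TPM in DMHCA library 2, inside the controls' range of 336 to 1309. The part of these cells in the members' levels was not tested.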

How the data were processed

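The members and the gene lists were chosen with earlier results of these data known, so counts over them are descriptions. Per the labels and the study's methods, the authors checked reads with FastQC, trimmed them with Cutadapt 2.9, and ran RSEM 1.3.1 on a Bowtie2 2.4.1 index of mm10 to make 1 table for each of the 6 libraries. The deposited expected counts are the authors' RSEM estimates of reads per gene, not normalized, in which reads matching more than 1 gene are shared out, and 19.6% to 23.5% of them are not whole. The deposited TPM values are the authors' RSEM levels, scaled for length and to a common sum. The FPKM values, which the authors deposited beside them, were not used here. Strand use and read length are not given in the sources used here.

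Expected counts were rounded. 2 libraries of a group were summed where their biological coefficient of variation, taken from genes with mean counts of 100 or more, was below 0.1 and all other pairs exceeded it over 5 times. The 3 control and 2 DMHCA samples were fitted in edgeR 4.0.16 under R 4.3.3 (TMM, filterByExpr with a minimum count of 10 and total of 15, quasi-likelihood F-test, Benjamini-Hochberg adjustment over 19427 genes). The SE is the log2 fold change over the square root of F, and normalized counts refer to the average effective library size. The study describes tumors of 3 control and 3 DMHCA-treated mice. The labels tie no library to an animal, and DMHCA libraries 1 and 3 are near identical. The p-values thus set the group difference against the spread between these samples.

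Named with values are the 3 alpha, beta, gamma A and gamma B members with the highest mean TPM, all C-type members, and, by smallest p, 5 higher and 5 lower members, with list genes of an unadjusted p under 0.05 or bearing on a member. Exons, transcripts and coordinates are those of GENCODE M21 (GRCm38), in which all 58 members were found. Windows of 50 and 100 bases were compared between transcripts of members by exact match. DESeq2 1.42.0, other filters, size factors, robust dispersions, 6 separate libraries, a replicate block, TPM and leaving out each library were alternatives. Tables were joined with pandas 2.3.3 in Python 3.11.15 and drawn with matplotlib 3.10.9. Some genes of the Schwann cell marker list are not reported here.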

Additional observations from a re-analysis of the deposited data

How the results depend on the processing

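Of 288 values of 21 named members under the alternatives, 265 kept their direction and their side of the threshold, 21 had the opposite sign and 2 crossed the threshold (Pcdha11, ENSMUSG00000007440, with DESeq2); 13 members never had the opposite sign. All genes with an adjusted p under 0.05 numbered 0 in edgeR on 5 samples (1478 at an unadjusted p under 0.05), 244 with DESeq2 on 5 samples, 882 with DESeq2 on 6 libraries and 16 with no filter on low counts, and 0 with any library left out. Members with an unadjusted p under 0.05 were 4 higher and 1 lower; lower ones were 3 on 6 separate libraries (8.03% of all genes), higher and lower ones were 7 and 5 with DESeq2 on 5 samples (2.35% and 4.35% of all genes), 7 and 6 with DESeq2 on 6 libraries (4.14% and 6.21%) and 7 and 3 with no filter (2.84% and 5.1%), and 2 were higher under a filter of 1 CPM (3.43%). With a library left out the numbers ranged from 0 to 5 in each direction. Members lower without overlap were 5 (12.2% of all genes). They were 2 on 6 separate libraries and 3 by TPM. The share of all genes under those settings is not given here, so these counts cannot be read as a result about the members.

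Same-numbered control and DMHCA libraries correlated in their deviations at -0.0585, 0.342 and 0.359, and differently numbered ones at -0.39 to 0.346. Because DMHCA libraries 1 and 3 are near identical, these correlations cannot decide whether the replicate numbers pair the samples. With the number as a replicate block, 0 genes passed the adjusted threshold, 3 members were higher and 4 lower at an unadjusted p under 0.05 (9.1% and 8.08% of all genes), and the log2 fold changes of Pcdhac2, Pcdhgb1 and Pcdhga4 were 0.59, 0.94 and 0.32. Not every library correlated best with its own number.

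The opposite sign was also found for Pcdhgb1 (0.0017 on 6 libraries, 0.026 with DESeq2 on them) and Pcdhga4 (0.12 on 6 libraries, 0.028 and 0.15 with DESeq2 on 5 and 6, 0.025 with no filter), both close to 0. With a library left out, log2 fold changes ranged from -1.68 to 0.70 for Pcdha8, -2.01 to 2.23 for Pcdhac2, -0.60 to 1.71 for Pcdhgb1, -0.37 to 0.76 for Pcdhga4, -0.30 to 1.79 for Pcdhgb2, -0.61 to 3.35 for Pcdhga6, -0.44 to 1.35 for Pcdhgc4 and -0.11 to 3.0 for Pcdhgc5. The gamma cluster's log2 ratio ranged from 0.10 (without DMHCA library 2) to 2.24. The cause was not tested. With 2 DMHCA samples, 1 of which carries the high gamma values, and alpha sums of 124 to 702 normalized counts, single alpha members are at the limit of the depth.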
